A study of Mus musculus with 4 samples.

Results

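Axon guidance ligands and receptors were taken as the genes of the ephrin receptor (Epha, Ephb), ephrin (Efna, Efnb), semaphorin (Sema), plexin (Plxn), netrin (Ntn), Slit, Robo and Unc5 families, found by symbol. The rule took 71 genes of chromosomes 1 to 19 and X, of which 70 are protein-coding. The other is Plxna4os1, a long non-coding RNA. By spelling alone it also took Unc5cl and Unc50, which are not netrin receptors. Of the 56036 H3K27me2 peaks in 4 lists, 345 were assigned to 48 of these genes, and 23 genes had no peak assigned in any list. Among the 70 protein-coding genes 47 had a peak in at least 1 list (67.1%, 95% Wilson interval 55.5 to 77.0%), where 45.3% of all protein-coding genes had one. Each peak counts for the gene to which the authors' annotation assigned it, unless a peak inside the gene is named as assigned elsewhere.

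The peaks come from ULI-NChIP-seq, which sequences nucleosomal DNA precipitated with an antibody from native chromatin of very few cells, here late (PN5) zygotes without polar bodies. Eggs of C57BL/6J mothers were fertilized in vitro by PWK/PhJ sperm in both groups, so that reads over strain variants could be assigned to the maternal or the paternal genome. The mothers were Ezh2 fl/fl, that is with floxed alleles, for Ezh2m+/p+ zygotes, and Ezh2 fl/fl with Gdf9-Cre for Ezh2m-/p+ zygotes. Gdf9-Cre is a transgene that is active in oocytes and deletes the floxed exon there. The paternal Ezh2 allele is intact in both groups. Each genotype had 1 H3K27me2 library and 1 input library, both made from pooled zygotes, so no difference between the genotypes has a replicate check and no test was made. The study's reporting summary gives fewer reads for the Ezh2m-/p+ than for the Ezh2m+/p+ libraries, both of H3K27me2 and of input. The part of this in the differences between genotypes was not tested. The genotypes used here are those of the labels of the lists, and the peak totals in the study's reporting summary go with the same genotypes. The study's panels of peaks by genomic category, however, appear to show them the other way round, and its text gives directions opposite to those of the labels. In the text, for example, the maternal signal in distal intergenic regions fell slightly without EZH2. By the labels the share of such peaks rose from 33.9% to 35.8%. A doubt therefore remains, and every direction between genotypes would turn if the labels were exchanged. The maternal and the paternal peaks of each genotype were called from 1 library, and the authors listed peaks for each parental genome with a fold over input, which is a linear ratio.

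H3K27me2 is placed by the Polycomb repressive complex PRC2, whose catalytic subunit is EZH2 or EZH1. In embryonic stem cells the mark covers much of the genome outside active genes. Axon guidance genes encode secreted or membrane-bound cues and their receptors, which steer growing axons and also migrating cells and vessels. Ephrins signal to Eph receptor kinases on touching cells, semaphorins to plexins, netrins to Unc5 receptors and others, and Slits to Robo receptors. They are best known from the developing nervous system, and many are long genes next to gene-poor sequence.

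To show what kind of DNA these peaks cover, the middle 300 bases of selected peaks are printed from the forward (+) strand of GRCm38 (mm10), with each CpG dinucleotide, the site of mammalian DNA methylation, in capitals. They are reference (C57BL/6J) bases, also for paternal peaks. For each list they are the axon guidance peak of largest fold and the promoter peak of largest fold, after leaving out peaks whose middle overlapped an exon and those on a chromosome that is not printed here. The Sema6d sequence lies in an intron, and both Plxna2 sequences lie before Plxna2 in DNA without a protein-coding gene. The Plxna4 and Unc5a sequences lie within 3 kb of an annotated start site. The Sema4d sequence comes from a peak whose nearer edge is 1.40 kb from the start site used, but its middle lies beyond 3 kb of that site. Among the axon guidance peaks of its list the Sema4d peak had the largest fold, also among promoter peaks, and no promoter peak is shown for the Ezh2m+/p+ maternal list.
Sema6d, Ezh2m+/p+ maternal list, chr2:124427551-124427850: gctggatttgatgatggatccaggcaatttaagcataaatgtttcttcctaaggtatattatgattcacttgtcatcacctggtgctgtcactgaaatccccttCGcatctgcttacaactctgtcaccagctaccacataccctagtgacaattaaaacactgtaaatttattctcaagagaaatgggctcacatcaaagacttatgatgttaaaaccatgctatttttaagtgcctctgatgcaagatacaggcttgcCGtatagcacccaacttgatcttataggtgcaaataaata
Plxna2, Ezh2m+/p+ paternal list, chr1:194443951-194444250: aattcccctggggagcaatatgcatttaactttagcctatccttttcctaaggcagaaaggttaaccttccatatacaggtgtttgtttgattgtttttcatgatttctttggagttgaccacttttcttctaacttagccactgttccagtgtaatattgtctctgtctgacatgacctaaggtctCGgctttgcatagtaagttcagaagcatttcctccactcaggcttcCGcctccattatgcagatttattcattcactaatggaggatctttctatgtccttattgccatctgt
Plxna4, Ezh2m+/p+ paternal list, chr6:32586851-32587150: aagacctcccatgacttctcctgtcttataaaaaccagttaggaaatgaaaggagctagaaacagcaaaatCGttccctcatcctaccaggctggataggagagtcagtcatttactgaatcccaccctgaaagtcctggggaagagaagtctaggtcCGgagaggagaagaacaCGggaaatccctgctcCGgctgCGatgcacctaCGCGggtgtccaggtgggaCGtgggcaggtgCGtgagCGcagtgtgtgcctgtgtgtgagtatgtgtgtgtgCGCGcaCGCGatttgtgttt
Sema4d, Ezh2m-/p+ maternal list, chr13:51760051-51760350: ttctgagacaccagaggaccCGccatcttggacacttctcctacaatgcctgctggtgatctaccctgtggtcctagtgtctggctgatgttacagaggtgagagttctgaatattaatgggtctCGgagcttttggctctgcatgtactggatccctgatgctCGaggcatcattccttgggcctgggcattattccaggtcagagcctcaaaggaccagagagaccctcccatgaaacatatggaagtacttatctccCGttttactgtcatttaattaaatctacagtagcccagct
Plxna2, Ezh2m-/p+ paternal list, chr1:194490851-194491150: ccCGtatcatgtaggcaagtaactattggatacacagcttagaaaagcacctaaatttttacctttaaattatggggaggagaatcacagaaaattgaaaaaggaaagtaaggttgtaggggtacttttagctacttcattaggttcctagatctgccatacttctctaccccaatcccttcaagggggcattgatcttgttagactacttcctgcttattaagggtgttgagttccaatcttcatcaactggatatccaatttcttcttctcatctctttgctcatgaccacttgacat
Unc5a, Ezh2m-/p+ paternal list, chr13:54998451-54998750: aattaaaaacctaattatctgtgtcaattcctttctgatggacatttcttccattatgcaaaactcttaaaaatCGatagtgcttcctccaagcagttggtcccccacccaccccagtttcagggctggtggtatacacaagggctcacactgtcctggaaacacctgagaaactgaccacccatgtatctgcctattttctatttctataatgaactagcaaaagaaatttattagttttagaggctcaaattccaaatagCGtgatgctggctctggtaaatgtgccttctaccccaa

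The Plxna4 sequence held 14 CpGs and 53.0% G and C, whereas the Plxna2 sequences held 2 and 1 CpGs with 40.0% and 39.0% G and C. The Sema6d and Unc5a sequences held 2 CpGs each, and the Sema4d sequence 4. Over all axon guidance peaks of a list, the median was between 0.750 and 1.0 CpG per 100 bp, against 0.819 to 0.929 over all peaks. Median G and C content was 46.5% (all peaks 45.5%) in the Ezh2m+/p+ maternal, 46.5% (44.7%) in the Ezh2m+/p+ paternal, 47.0% (45.6%) in the Ezh2m-/p+ maternal and 43.9% (44.0%) in the Ezh2m-/p+ paternal list. Promoter peaks of these genes were richer in CpG, with medians per 100 bp of 1.72 (3 peaks) in the Ezh2m+/p+ maternal, 2.00 (17) in the Ezh2m+/p+ paternal, 1.97 (10) in the Ezh2m-/p+ maternal and 1.75 (15) in the Ezh2m-/p+ paternal list. Over all promoter peaks these medians were 1.13, 1.25, 1.17 and 1.20, so that promoter peaks of axon guidance genes lay above the promoter peaks of their list in each case, without a test.

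In Ezh2m+/p+ zygotes, 24 maternal peaks were assigned to 17 axon guidance genes and 112 paternal peaks to 27. In Ezh2m-/p+ zygotes there were 50 maternal peaks at 29 genes and 159 paternal peaks at 30. These peaks made up 0.418% of the Ezh2m+/p+ maternal list (95% Wilson interval 0.281 to 0.621%), 0.627% of the Ezh2m+/p+ paternal (0.521 to 0.754%), 0.521% of the Ezh2m-/p+ maternal (0.395 to 0.686%) and 0.697% of the Ezh2m-/p+ paternal list (0.597 to 0.813%). The shares of the maternal and of the paternal lists had overlapping intervals between genotypes, so the larger numbers in Ezh2m-/p+ zygotes went with longer lists, of 9606 against 5744 maternal and 22823 against 17863 paternal peaks. All intervals here cover counting error only, since peaks of 1 library are not replicates and neighbouring peaks are not independent. The reads tell the parental genomes apart in another way. On the 19 chromosomes that hold these genes, the authors' coverage table gives maternal reads over 13.1 to 33.3% of a chromosome in Ezh2m+/p+ zygotes and over 20.8 to 45.1% in those without maternal Ezh2, and paternal reads over 1.10 to 4.03% and 1.60 to 5.47%. Paternal peaks were thus more numerous where far less sequence was covered, and the part of this coverage in the parental differences below was not tested.

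**Figure D1:**
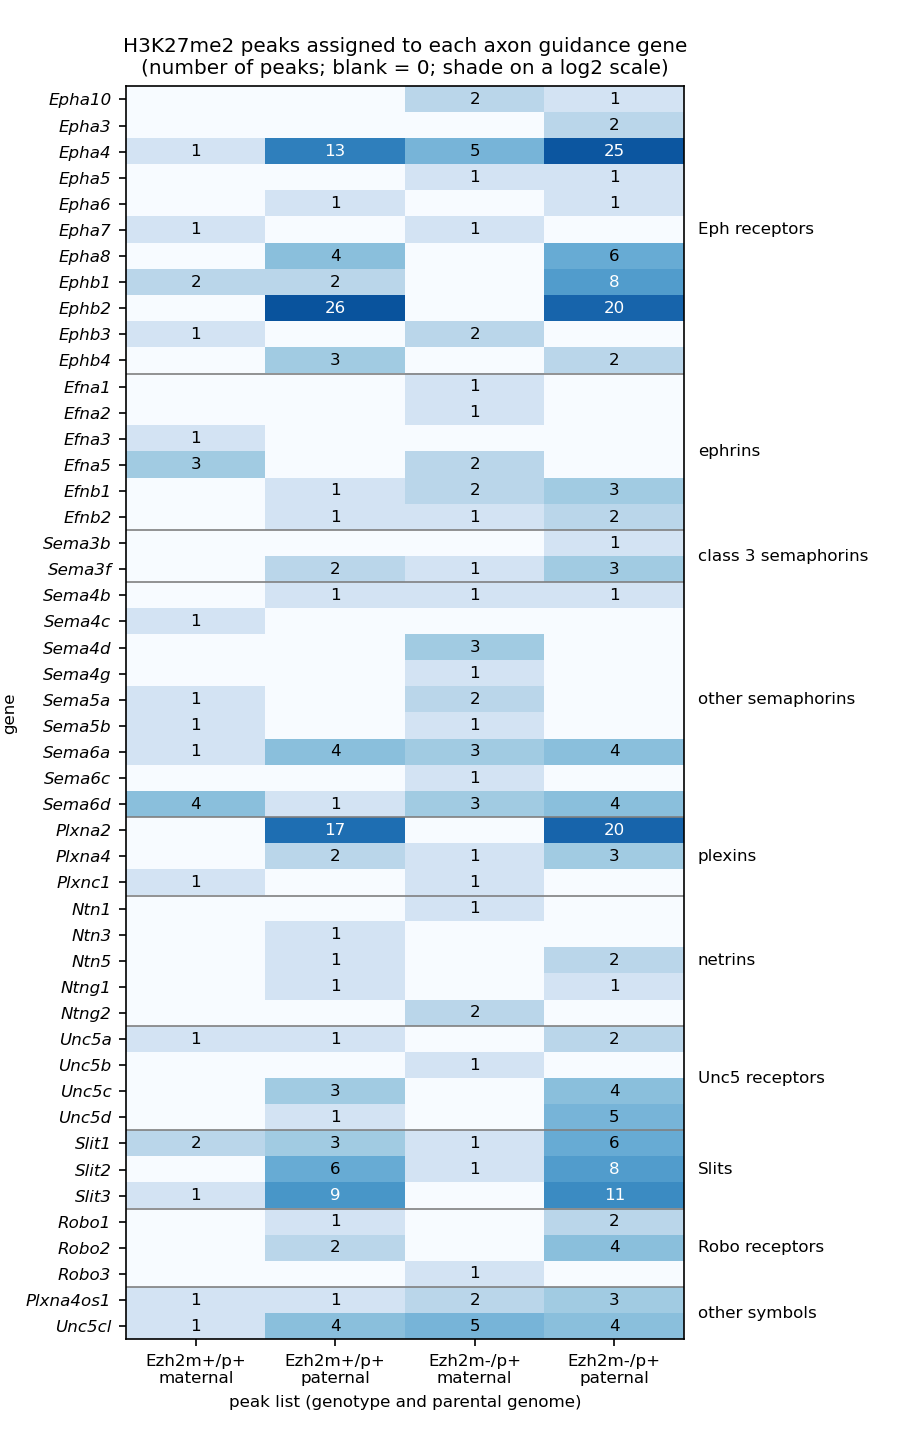
Number of H3K27me2 peaks assigned to each of the 48 axon guidance genes that had any (rows, by family) in the 4 peak lists (columns); blank cells are 0 and the shade follows a log2 scale. Epha4, Ephb2 and Plxna2 held 13, 26 and 17 of the 112 Ezh2m+/p+ paternal peaks, and Ephb2 and Plxna2 had no maternal peak.

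Of the 70 protein-coding genes, 16 (22.9%, 95% Wilson interval 14.6 to 34.0%) had a peak in the Ezh2m+/p+ maternal list, where 14.6% of all 21631 protein-coding genes had one. The Ezh2m+/p+ paternal list had peaks at 26 genes (37.1%, 26.8 to 48.9%) against 20.3%. In the Ezh2m-/p+ maternal list it was 28 genes (40.0%, 29.3 to 51.7%) against 21.1%, and in the Ezh2m-/p+ paternal list 29 genes (41.4%, 30.6 to 53.1%) against 23.8%. The genes of these families are long, with a median span of 45.2 kb against 17.3 kb over all protein-coding genes, and longer genes more often had a peak. Among genes of 100 kb or more, the axon guidance share was 36.7% (21.9 to 54.5%) against 39.3% for all such genes in the Ezh2m+/p+ maternal list and 46.7% (30.2 to 63.9%) against 50.5% in the Ezh2m-/p+ maternal list. In the paternal lists it was 53.3% (36.1 to 69.8%) against 40.3% in Ezh2m+/p+ and 60% (42.3 to 75.4%) against 44.7% in Ezh2m-/p+ zygotes. Each of these 4 intervals held the share of all genes of that length. The class under 20 kb in the Ezh2m-/p+ maternal list was the only one of 12 whose interval did not: 7 of 22 genes had a peak (31.8%, 16.4 to 52.7%), against 11.6%.

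**Figure D2:**
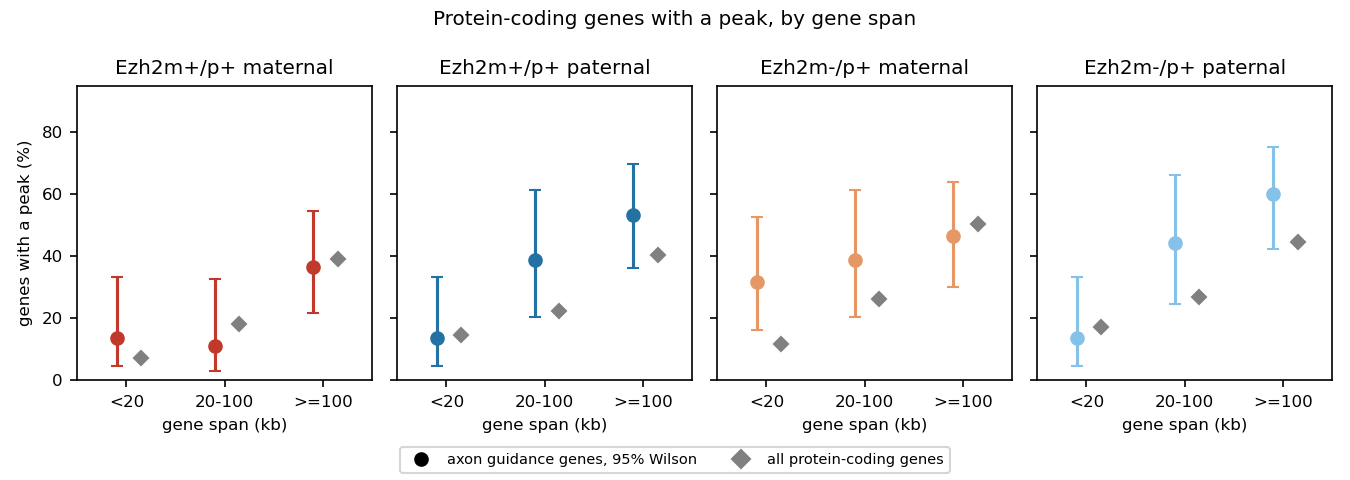
Share of protein-coding genes with a peak (%) in 3 classes of gene span (kb) for each list; coloured points are axon guidance genes with 95% Wilson intervals and grey diamonds all protein-coding genes. In genes of 100 kb or more the axon guidance share was 36.7% to 60%, and each interval held the grey point.

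Counted over the pooled length of their genes, the families held fewer peaks per Mb than all protein-coding genes. Inside the spans of the 70 genes lay 1.22 peaks per Mb in the Ezh2m+/p+ maternal list, against 3.05 over all protein-coding genes. The density was 4.87 against 8.56 in the Ezh2m+/p+ paternal, 2.11 against 4.99 in the Ezh2m-/p+ maternal and 6.57 against 10.9 in the Ezh2m-/p+ paternal list. Of the paternal peaks inside these spans, Ephb2 alone held 21 of 60 in Ezh2m+/p+ zygotes and 16 of 81 in Ezh2m-/p+ zygotes. Without it the paternal densities were 3.21 and 5.36 peaks per Mb. The longest genes weigh most in such a pooled density: Robo2, Robo1 and Epha6 span 1555, 1020 and 969 kb of the 12.3 Mb. Inside them lay 2, 1 and 1 paternal peaks in Ezh2m+/p+ zygotes, 4, 2 and 2 in Ezh2m-/p+ zygotes, and no maternal peak. Densities without these genes or at matched gene length were not computed.

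Eph receptors are tyrosine kinases that bind ephrins on neighbouring cells, and 11 of the 14 genes had a peak in some list, a count to be read, like those of the other families, against the 45.3% of all protein-coding genes. Of the paternal peaks they held 49 of 112 in Ezh2m+/p+ zygotes and 66 of 159 in Ezh2m-/p+ zygotes, but of the maternal peaks 5 of 24 and 11 of 50. Most of the paternal peaks belonged to Ephb2 and Epha4. The genes with no peak in any list were Epha1, Epha2 and Ephb6.

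Ephb2 lies on chromosome 4 (136647536 to 136836326, minus strand) and has the most peaks of any family gene in the Ezh2m+/p+ paternal list, with 26. In the Ezh2m-/p+ paternal list it had 20, and it had none in either maternal list. Its paternal peaks lay side by side, with a median gap of 1.20 kb in both genotypes, and ran from before the start of the gene past its end. They covered 82.5% of the gene in Ezh2m+/p+ zygotes and 88.4% of it in Ezh2m-/p+ zygotes. Of the 2427 protein-coding genes of 100 kb or more, 1 was covered further by the Ezh2m+/p+ paternal peaks (Hspg2, 85.8%) and 1 by the Ezh2m-/p+ paternal peaks (Ptpra, 88.6%), both named here after their values were seen. The longest axon guidance peak of each paternal list lay in Ephb2, with 21999 bp and a fold of 11 in Ezh2m+/p+ and 29599 bp and a fold of 12.9 in Ezh2m-/p+ zygotes. Its largest folds, 193 and 158, belonged to shorter peaks, of which the Ezh2m+/p+ one was 2399 bp long and lay in an intron. Of the 26 Ezh2m+/p+ peaks, 25 overlapped an Ezh2m-/p+ paternal peak by at least 1 bp, and 18 of the 20 Ezh2m-/p+ peaks overlapped one of the other genotype.

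Epha8, another Eph receptor gene, follows on the same chromosome (136929419 to 136956859, minus strand). It had 4 Ezh2m+/p+ and 6 Ezh2m-/p+ paternal peaks, which covered 58.5% and 53.3% of its 27.4 kb, and no maternal peak. Between both genes lie C1qa, C1qb and C1qc, which encode chains of complement C1q. The whole stretch of 330 kb held 39 Ezh2m+/p+ and 32 Ezh2m-/p+ paternal peaks, which covered 73.7% and 78.7% of it, and no maternal peak of either genotype. The 1 Mb window around it had 98 and 101 paternal peaks, where the median of windows with a peak was 6 and 8. More peaks were found in 23 of 1564 windows in Ezh2m+/p+ and in 18 of 1658 in Ezh2m-/p+ zygotes.

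**Figure D3:**
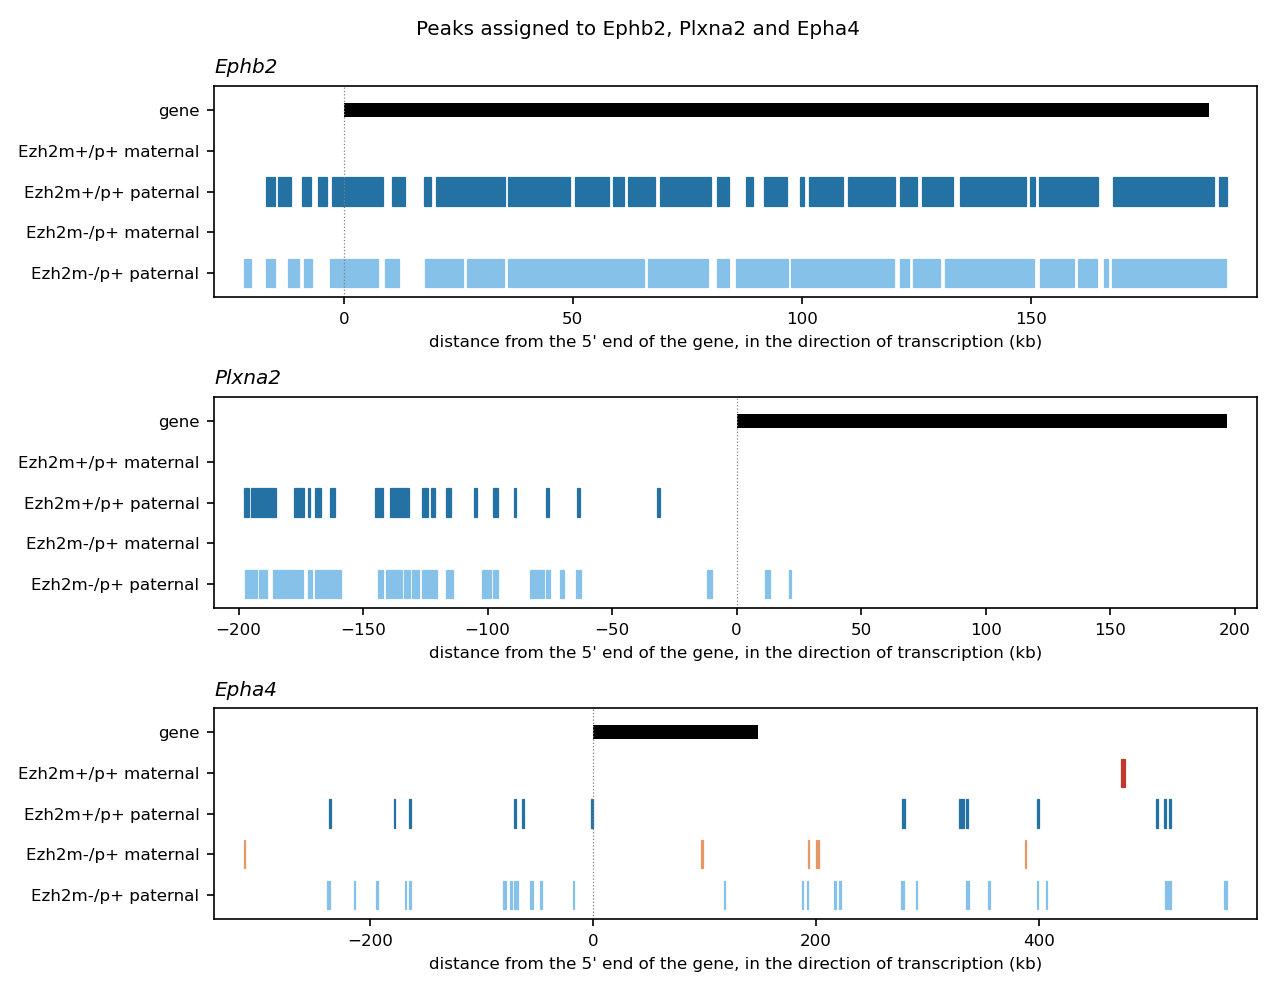
Peaks assigned to Ephb2, Plxna2 and Epha4 in the 4 lists (coloured bars, to scale) by distance from the 5′ end of the gene in the direction of transcription (kb), with the gene as a black bar. Ephb2 peaks covered 82.5% and 88.4% of the gene in the paternal lists, Plxna2 peaks lay before the gene except for 2, and Epha4 peaks lay mostly on either side of the gene.

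Epha4, a receptor for ephrins of both classes, lies on chromosome 1 (77367182 to 77515107, minus strand) and had peaks in all 4 lists. There was 1 Ezh2m+/p+ maternal, 13 Ezh2m+/p+ paternal, 5 Ezh2m-/p+ maternal and 25 Ezh2m-/p+ paternal peaks. In contrast to Ephb2 the gene itself was nearly free of them: 1.02% of it was covered in the Ezh2m+/p+ paternal and 1.89% in the Ezh2m-/p+ paternal list. The peaks lay in the sequence on either side, which holds no protein-coding gene over 586 kb before Epha4 (up to Pax3) and over 1808 kb after it (up to Slc4a3). Of the 13 Ezh2m+/p+ paternal peaks, 5 lay before the gene and 7 after it, and 1 with a fold of 60.2 covered its 5′ end. Of the 25 Ezh2m-/p+ paternal peaks, 11 lay before and 13 after it, with folds of up to 189, and none was annotated to a promoter. The 8 Ezh2m+/p+ peaks that overlapped a peak of the other genotype did not include the promoter peak. The Ezh2m+/p+ maternal peak (fold 49.6) lay after the gene, and 3 of the 5 Ezh2m-/p+ maternal peaks did, including that of largest fold (48.9). At 1 of these sites an Ezh2m-/p+ maternal peak (fold 19.1) overlapped an Ezh2m-/p+ paternal peak (fold 63.0).

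The other Eph receptor genes had 8 peaks or fewer in a list. Ephb1 had 2 maternal peaks in Ezh2m+/p+ zygotes, with folds of 6.03 and 5.86, and none in Ezh2m-/p+ zygotes. In the paternal lists it had 2 and 8 peaks, of which the Ezh2m-/p+ ones fell mostly inside the gene (7 of 8). Ephb4, a receptor of the venous endothelium, had a paternal peak at its promoter in both genotypes, starting at the same base of chromosome 5 (137348201). Its fold was 7.52 in Ezh2m+/p+ zygotes and 252 in Ezh2m-/p+ zygotes, where no other axon guidance peak had a larger one. Another Ezh2m+/p+ peak within 1 kb of the start (fold 12) overlapped no Ezh2m-/p+ peak. Epha10 had 2 maternal peaks and 1 paternal peak, and Epha5 1 of each, in Ezh2m-/p+ zygotes only. The Epha10 maternal peak of fold 21.4 was annotated within 1 kb of a start site.

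Ephrins are the membrane-bound ligands of the Eph receptors, and 6 of the 8 genes had a peak. They had more maternal than paternal peaks, with 4 against 2 in Ezh2m+/p+ and 7 against 5 in Ezh2m-/p+ zygotes. Efna5 had 3 Ezh2m+/p+ and 2 Ezh2m-/p+ maternal peaks and no paternal peak. All 5 were distal intergenic, at 102 to 741 kb from the nearest start site. At 1 site, on chromosome 17 from 62983201, the peaks of both genotypes overlapped, with folds of 34.8 and 29.1. Efnb1 (chromosome X) and Efnb2 had peaks in both parental genomes of Ezh2m-/p+ zygotes. Efnb1 had 2 maternal and 3 paternal peaks and Efnb2 1 and 2, whereas in Ezh2m+/p+ zygotes each had 1 paternal peak only. The Efnb2 peaks lay 307 to 1355 kb from its start. Efna4 and Efnb3 had none.

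Semaphorins are secreted or membrane-bound cues that mostly repel growth cones. Of the 7 class 3 genes, which encode the secreted forms, 2 had a peak, Sema3b and Sema3f, and Sema3a, Sema3c, Sema3d, Sema3e and Sema3g had none. Sema3f had 2 Ezh2m+/p+ paternal peaks at start sites inside the gene, with folds of 60.2 and 7.52, and both overlapped Ezh2m-/p+ paternal peaks, with folds of 173 and 7.22. It also had 1 Ezh2m-/p+ maternal peak (fold 29.8) near another start site. Of the other 13 semaphorin genes, 9 had a peak, and as for the ephrins the maternal peaks were more numerous, with 8 against 6 in Ezh2m+/p+ and 15 against 9 in Ezh2m-/p+ zygotes. Sema6d and Sema6a had peaks in all 4 lists, whereas Sema4c, Sema4d, Sema4g, Sema5a, Sema5b and Sema6c had maternal peaks only. Sema4b had 1 peak in each list except the Ezh2m+/p+ maternal one, and Sema4a, Sema4f, Sema6b and Sema7a had none.

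Sema6d, a membrane-bound semaphorin, lies on chromosome 2 (124089943 to 124667789, plus strand) and had the most peaks of these families in the Ezh2m+/p+ maternal list, with 4. Of these, 3 lay inside the gene, including the peak of largest fold among the axon guidance peaks of that list (69.7), in an intron. The 3 Ezh2m-/p+ maternal peaks all lay after the gene and none overlapped an Ezh2m+/p+ maternal peak. Another 3 peaks of the Ezh2m-/p+ maternal list lay inside Sema6d but were assigned to other genes, and they covered 1.59% of it against 2.46% in the Ezh2m+/p+ maternal list. The paternal peaks, of which Ezh2m+/p+ zygotes had 1 and Ezh2m-/p+ zygotes 4, lay 467 to 631 kb before the gene. Maternal and paternal peaks of Sema6d therefore did not share sequence in either genotype. Sema4d had 3 peaks, all in the Ezh2m-/p+ maternal list, and the one with a fold of 53.5 was the largest of the axon guidance peaks of that list.

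Plexins are the receptors of most semaphorins, and 3 of the 9 genes had a peak. Plxna2 (chromosome 1, 194619791 to 194816869, plus strand) had 17 paternal peaks in Ezh2m+/p+ zygotes, 20 in Ezh2m-/p+ zygotes and no maternal peak. All 17 Ezh2m+/p+ peaks and 18 of the 20 Ezh2m-/p+ peaks were distal intergenic and lay before the gene, where no protein-coding gene is found over 1249 kb up to Camk1g. They covered 23.5% and 37.0% of the 198 kb before the gene, and the gene itself was covered over 0% and 1.72%. Among the axon guidance peaks, that of largest fold in the Ezh2m+/p+ paternal list (253) lay 174 kb before Plxna2, and the second largest in the Ezh2m-/p+ paternal list (236) lay 127 kb before it. Both are the sources of the Plxna2 sequences above. Of the Ezh2m+/p+ peaks 14 overlapped a peak of the other genotype, and of the Ezh2m-/p+ peaks 13. Plxna4 had 2 Ezh2m+/p+ paternal, 1 Ezh2m-/p+ maternal and 3 Ezh2m-/p+ paternal peaks. A peak was annotated to its promoter in all 3 of these lists, with folds of 54.2, 5.55 and 13.8, and the maternal and paternal Ezh2m-/p+ peaks overlapped there. Maternal peaks also lay inside the span of Plxna4, 3 in Ezh2m+/p+ (2.79% covered) and 6 in Ezh2m-/p+ zygotes (3.33%), most of them assigned to other genes. Plxnc1 had 1 maternal peak in each genotype, at different places, and Plxna1, Plxna3, Plxnb1, Plxnb2, Plxnb3 and Plxnd1 had none.

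Of the netrin and netrin-G genes, 5 of 6 had a peak, but each list held at most 3. Ntn1, the netrin of the ventral midline, had 1 peak, in the Ezh2m-/p+ maternal list (fold 5.16), and Ntn4 had none assigned to it. Peaks assigned to other genes also lay inside both: paternal peaks, 2 in Ezh2m+/p+ zygotes and 4 in Ezh2m-/p+ zygotes, took up 2.03% and 3.83% of Ntn1, and 2 paternal peaks of Ezh2m-/p+ zygotes took up 4.00% of Ntn4. All 4 Unc5 netrin receptor genes had a peak. Unc5c and Unc5d had paternal peaks only, 3 and 1 in Ezh2m+/p+ and 4 and 5 in Ezh2m-/p+ zygotes, and Unc5b 1 maternal peak in Ezh2m-/p+ zygotes. Unc5a had 1 maternal and 1 paternal peak in Ezh2m+/p+ zygotes and 2 paternal peaks in Ezh2m-/p+ zygotes. The Unc5cl and Plxna4os1 genes, which the symbol rule also took, had peaks in all 4 lists, with 5 Ezh2m-/p+ maternal peaks for Unc5cl as for Epha4, and Unc50 had none.

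Slits are large secreted ligands that repel axons at the midline, and all 3 genes had peaks in several lists. They held 18 Ezh2m+/p+ and 25 Ezh2m-/p+ paternal peaks against 3 and 2 maternal peaks. Slit3, with 9 and 11 paternal peaks, carried them mainly inside its span of 587 kb (6 and 10 peaks), with gaps of up to 120 and 133 kb. Slit2 had 6 and 8 paternal peaks. In Ezh2m+/p+ zygotes 2 of these were annotated to promoters within the gene, each with a fold of 36.1, and 4 lay before it. All 8 Ezh2m-/p+ peaks lay before Slit2, at 190 to 958 kb, and no Slit2 peak overlapped a peak of the other genotype. Slit1 had peaks in all 4 lists, and its paternal peaks, 3 and 6, all overlapped the gene. Its peak before the gene in the maternal genome was found in both genotypes, with folds of 7.71 and 25.2. Robo1 and Robo2, receptors of the Slits with spans of 1020 and 1555 kb, had 1 and 2 paternal peaks in Ezh2m+/p+ zygotes and 2 and 4 in Ezh2m-/p+ zygotes, and no maternal peak. Robo3 had 1 Ezh2m-/p+ maternal peak, and Robo4 had none.

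The genes with peaks in the maternal and in the paternal genome were compared. In Ezh2m+/p+ zygotes 9 genes had both: Epha4, Ephb1, Sema6a, Sema6d, Slit1, Slit3, Unc5a, Unc5cl and Plxna4os1. These were 52.9% of the genes with a maternal and 33.3% of those with a paternal peak. In Ezh2m-/p+ zygotes it was 14 genes, or 48.3% and 46.7%. Of the 70 protein-coding genes, 8 (11.4%, 95% Wilson interval 5.91 to 21.0%) had both in Ezh2m+/p+ zygotes and 13 (18.6%, 11.2 to 29.2%) did in Ezh2m-/p+ zygotes, against 3.98% and 6.08% of all protein-coding genes. Gene length was not taken into account in these shares. Far fewer genes had both when only peaks that overlap the gene were counted, as given below. No axon guidance peak of Ezh2m+/p+ zygotes overlapped a peak of the other parental genome, which allows a share of up to 13.8% of the 24 maternal and 3.32% of the 112 paternal peaks (upper Wilson limits), and over all peaks the shares were 0.418% and 0.14%, so a count of 0 among so few peaks shows no difference from the list. In Ezh2m-/p+ zygotes 2 of 50 maternal peaks (4.00%, 1.10 to 13.5%) did, against 0.416% of all peaks of the list, at Epha4 and at the Plxna4 promoter. They overlapped 2 of the 159 paternal peaks (1.26%, 0.346 to 4.47%), against 0.18%. Both intervals lay above the share of the list, but each rests on 2 sites. Over both genotypes, 17 genes had maternal peaks only, 14 paternal peaks only and 17 both. Of the 70 protein-coding genes, these were 24.3% (15.8 to 35.5%) with maternal peaks only, against 18.9% of all protein-coding genes, and 20% (12.3 to 30.8%) with paternal peaks only, against 18.1%. Both kinds of peak were found at 22.9% (14.6 to 34.0%), against 8.36%, and this interval alone lay above the share of all genes, without regard to gene length. Counting peaks inside the gene that were assigned elsewhere, the numbers were 16, 15 and 18, as Ntn1 then had both and Ntn4 paternal peaks, and over all protein-coding genes the shares were 20%, 19% and 9.32%. The genes with maternal peaks only included 4 ephrin genes (Efna1, Efna2, Efna3, Efna5), 6 semaphorin genes and the Eph receptor genes Epha7 and Ephb3. Those with paternal peaks only included 5 Eph receptor genes (Epha3, Epha6, Epha8, Ephb2, Ephb4), the semaphorin gene Sema3b and no ephrin gene.

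Between the genotypes, the paternal genome kept most genes and many sites. Of the 27 genes with an Ezh2m+/p+ paternal peak, 26 also had an Ezh2m-/p+ paternal peak (96.3%, with 86.8% for all protein-coding genes), and Ntn3 did not. The Ntn3 peak lay 1.87 kb before the start site used, and no Ezh2m-/p+ paternal peak overlapped it. A peak inside the gene that was assigned to another gene was found in both paternal lists and covered 36.0% of Ntn3 in each. Epha3, Epha5, Epha10 and Sema3b had an Ezh2m-/p+ paternal peak only. Of the 112 peaks in Ezh2m+/p+ zygotes, 69 (61.6%, 52.4 to 70.1%) overlapped a paternal peak of the other genotype, against 66.1% of all peaks of that list. Without Ephb2 the share was 51.2% of 86 peaks (40.8 to 61.4%), an interval that lay below the share of the list. Of the 26 Ephb2 peaks 25 overlapped one, so leaving them out could only lower the share, while the share of the list kept them. In the other direction 61 of the 159 peaks in Ezh2m-/p+ zygotes overlapped one (38.4%, 31.2 to 46.1%), against 45.7%. At a reciprocal overlap of 50% the share was 34.8% (26.6 to 44.0%) of the Ezh2m+/p+ paternal peaks, against 31.4% of that list. It was 24.5% (18.5 to 31.8%) of the Ezh2m-/p+ paternal peaks, against 24.6%. The pairs of overlapping peaks, 78 in all, had a higher fold in Ezh2m-/p+ zygotes in 33 and a lower one in 45. The Ezh2m-/p+ peak was the longer of the pair in 50, the shorter in 22 and of equal length in 6. A peak that overlapped several peaks entered once for each, as the long Ephb2 peaks did, so the pairs are not independent. Such pairs were not counted over all peaks, whose median length was also larger in the Ezh2m-/p+ paternal list, with 1999 against 1799 bp.

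In the maternal genome most genes recurred but few sites did. Of the 17 genes with an Ezh2m+/p+ maternal peak, 12 also had an Ezh2m-/p+ maternal peak (70.6%, with 57.8% for all protein-coding genes). Of their 24 peaks, however, 2 (8.33%, 2.32 to 25.8%) overlapped an Ezh2m-/p+ maternal peak, against 9.47% of all peaks of the list, and 2 of the 50 Ezh2m-/p+ maternal peaks (4.00%, 1.10 to 13.5%) against 5.78%. These were the Efna5 and Slit1 sites. Genes without an Ezh2m+/p+ maternal peak that had one in Ezh2m-/p+ zygotes numbered 17, among them Ntn1, Sema4d, Slit2, Unc5b and 4 ephrin genes (Efna1, Efna2, Efnb1, Efnb2). Of the 29 genes with an Ezh2m-/p+ maternal peak, 41.4% thus had one in both genotypes, near the 40.1% of all protein-coding genes. In both parental genomes, with Ephb2 included and at an overlap of at least 1 bp, each of these 4 intervals held the share over all peaks of its list. Each genotype is 1 library, so a genotype effect and a difference between libraries cannot be told apart.

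Peaks were also compared by position in or near the gene. In Ezh2m+/p+ zygotes 9 of the 24 maternal peaks were distal intergenic (37.5%, 95% Wilson interval 21.2 to 57.3%), 12 lay within a gene (50%, 31.4 to 68.6%) and 3 at a promoter, which the annotation counts up to 3 kb from a start site (12.5%, 4.34 to 31.0%). Among the 112 paternal peaks of these zygotes, 42.9% (34.1 to 52.1%) were distal intergenic, 41.1% (32.4 to 50.3%) within a gene and 15.2% (9.70 to 23.0%) at a promoter. All 6 of these intervals held the share over all peaks of the list. In the Ezh2m-/p+ maternal list 25 of 50 peaks were distal intergenic (50%, 36.6 to 63.4%, all peaks 35.8%) and 15 lay within a gene (30%, 19.1 to 43.8%, all peaks 46.8%). In the Ezh2m-/p+ paternal list 79 of 159 were distal intergenic (49.7%, 42.0 to 57.4%, all peaks 40.7%) and 15 at a promoter (9.43%, 5.80 to 15%, all peaks 16.9%). In these 4 cases the interval did not hold the share of the list. With peaks over 2000 bp only, the distal intergenic shares of the Ezh2m-/p+ lists were 28% (14.3 to 47.6%) maternal and 40.8% (30.2 to 52.5%) paternal, and by covered base pairs promoters took 17.3% of the paternal axon guidance sequence. Shares of all peaks were not computed at either setting, so these values have no like share of the list beside them. Without Plxna2 and Epha4, a choice made after the data were seen, the distal intergenic share was 26.8% (18.4 to 37.3%) in the Ezh2m+/p+ paternal list, below that of the list, 46.7% (32.9 to 60.9%) in the Ezh2m-/p+ maternal list and 36.0% (27.7 to 45.1%) in the Ezh2m-/p+ paternal list, and the promoter share of the latter was 13.2% (8.14 to 20.6%).

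**Figure D4:**
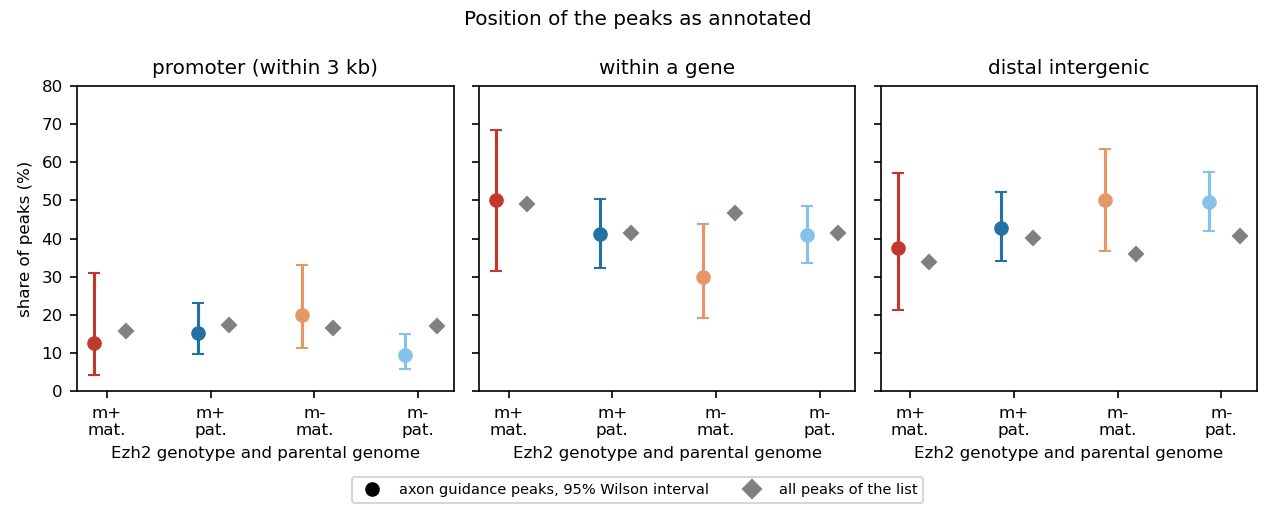
Share of peaks (%) at promoters, within genes and in distal intergenic sequence for each list (m+ is Ezh2m+/p+, m- is Ezh2m-/p+, mat. maternal, pat. paternal); coloured points are axon guidance peaks with 95% Wilson intervals, grey diamonds all peaks of the list. The distal intergenic share was 50% and 49.7% in the Ezh2m-/p+ maternal and paternal lists, against 35.8% and 40.7% of all peaks.

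Axon guidance peaks were often far from a start site. Of the paternal peaks 36.6% (28.3 to 45.8%) in Ezh2m+/p+ zygotes and 39.6% (32.4 to 47.4%) in Ezh2m-/p+ zygotes lay 100 kb or more away, against 20.1% and 22.5% of all peaks. In the maternal lists the shares were 29.2% (14.9 to 49.2%) and 26% (15.9 to 39.6%), against 15.7% and 16.0%, which these wider intervals held. Plxna2 and Epha4 supplied many of these. Without both genes the paternal shares were 23.2% (15.4 to 33.4%) in Ezh2m+/p+ zygotes, an interval that held the share of the list, and 33.3% (25.3 to 42.4%) in Ezh2m-/p+ zygotes.

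Promoter peaks numbered 3, 17, 10 and 15 in the Ezh2m+/p+ maternal, Ezh2m+/p+ paternal, Ezh2m-/p+ maternal and Ezh2m-/p+ paternal lists. Fewer lay within 3 kb of the 5′ end of the whole gene, 0, 7, 5 and 6, and the others were annotated to start sites of other transcripts. For Ephb2, for example, 3 peaks of each paternal list were called promoter peaks and 1 of them covered the 5′ end of the gene. A peak within 1 kb of a start site with a fold over 20 was found at Epha4, Sema3f, Plxna4, Slit2 and Unc5cl in the Ezh2m+/p+ paternal list, at Epha10 in the Ezh2m-/p+ maternal list, and at Ephb4 and Sema3f in the Ezh2m-/p+ paternal list. The Ezh2m+/p+ maternal list had none, and its 3 promoter peaks, at Sema6d, Sema4c and Sema6a, had folds of 5.19 to 6.03.

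Of the genes with a peak, 4 of 17 had 2 or more in the Ezh2m+/p+ maternal, 15 of 27 in the Ezh2m+/p+ paternal, 12 of 29 in the Ezh2m-/p+ maternal and 24 of 30 in the Ezh2m-/p+ paternal list. Among the 70 protein-coding genes this was 5.71% (95% Wilson interval 2.24 to 13.8%) against 4.57% of all protein-coding genes in the Ezh2m+/p+ maternal list, and 21.4% (13.4 to 32.4%) against 11.6% in the Ezh2m+/p+ paternal list. The values were 15.7% (9.01 to 26%) against 7.67% in the Ezh2m-/p+ maternal and 32.9% (23.0 to 44.5%) against 14.5% in the Ezh2m-/p+ paternal list. These shares were not compared at matched gene length, and the 70 genes are longer, with a median span of 45.2 kb against 17.3 kb. The 3 genes with the most peaks held 50% of the Ezh2m+/p+ paternal peaks (Ephb2, Plxna2, Epha4) and 40.9% of the Ezh2m-/p+ paternal peaks (Epha4, Ephb2, Plxna2). In the maternal lists they held 37.5% (Sema6d 4, Efna5 3, and 2 each for Slit1 and Ephb1) and 26% (Epha4 5, Unc5cl 5, and 3 each for Sema4d, Sema6a and Sema6d), counting 1 gene for each tie. Peak number therefore followed different layouts: a covered gene for Ephb2, a covered stretch before the gene for Plxna2, and scattered peaks on both sides for Epha4.

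The fold over input had a median of 10.4 for the 24 Ezh2m+/p+ maternal peaks (range 5.19 to 69.7), against 7.37 over all peaks of the list. It was 36.1 for the Ezh2m+/p+ paternal peaks (5.12 to 253), as for all peaks. It was 23.7 for the Ezh2m-/p+ maternal peaks (5.01 to 53.5), again as for all peaks, and 16.7 for the Ezh2m-/p+ paternal peaks (5.07 to 252), against 15.8. These folds fell on repeated steps. The 112 Ezh2m+/p+ paternal peaks had 44 distinct values and 22 of them a fold of 36.1, and the 159 Ezh2m-/p+ paternal peaks had 58 values and 25 of them a fold of 63.0. A difference between such folds can thus be the step of the scale, and the same limit on the fold can select differently in different lists. Peaks of 10 kb or more, 10 in Ezh2m+/p+ and 9 in Ezh2m-/p+ paternal lists, had folds of 6.59 to 23.3 only and belonged to Ephb2 (8 and 7), Plxna2 (1 and 2) and Epha8 (1 in Ezh2m+/p+). The median length was 2999, 1799, 2099 and 1999 bp in the Ezh2m+/p+ maternal and paternal and the Ezh2m-/p+ maternal and paternal lists, against 2999, 1799, 2199 and 1999 bp over all peaks.

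**Figure D5:**
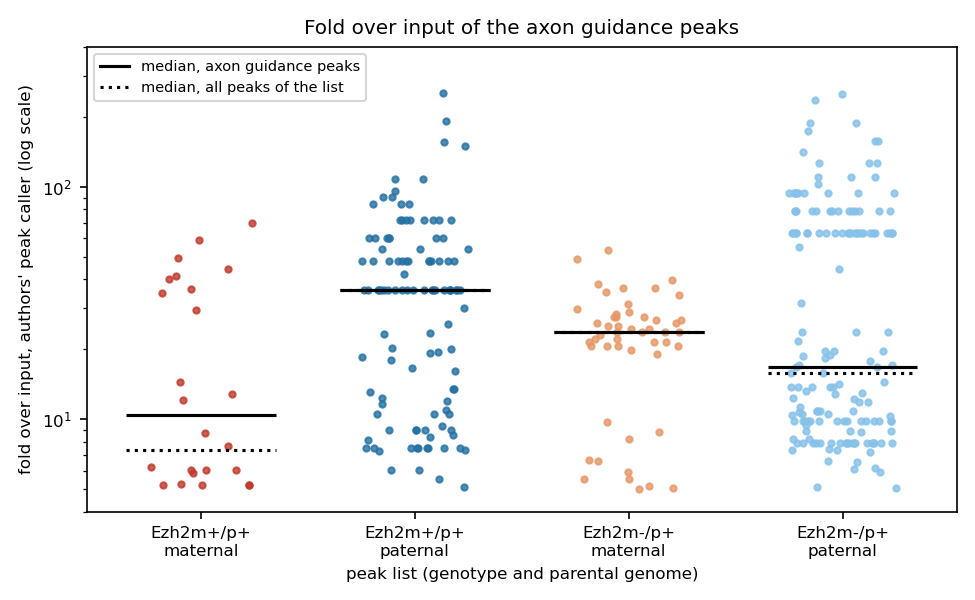
Fold over input of each axon guidance peak (points, log scale) in the 4 lists, with the median of the axon guidance peaks (solid line) and of all peaks (dotted line). The points lie on shared steps, such as 36.1 in the Ezh2m+/p+ and 63.0 in the Ezh2m-/p+ paternal list, and the medians were 10.4, 36.1, 23.7 and 16.7.

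Other axon guidance genes outside these families were counted from a list of 60. A peak was found at 26 of them (43.3%, 95% Wilson interval 31.6 to 55.9%) in the Ezh2m+/p+ maternal, 25 (41.7%, 30.1 to 54.3%) in the Ezh2m+/p+ paternal, 33 (55.0%, 42.5 to 66.9%) in the Ezh2m-/p+ maternal and 24 (40.0%, 28.6 to 52.6%) in the Ezh2m-/p+ paternal list, against 14.6%, 20.3%, 21.1% and 23.8% of all protein-coding genes. These 60 genes are longer still, with a median span of 103 kb against 17.3 kb. Among the 30 of them of 100 kb or more, the shares were 56.7% (39.2 to 72.6%), 50% (33.2 to 66.8%), 70% (52.1 to 83.3%) and 46.7% (30.2 to 63.9%), in the same order of lists, against 39.3%, 40.3%, 50.5% and 44.7% of all protein-coding genes of that length. At this length the Ezh2m-/p+ maternal interval alone lay above the share of all genes. Of the 8 intervals of shorter genes, a pair did: under 20 kb, 4 of 12 genes had an Ezh2m+/p+ maternal peak (33.3%, 13.8 to 60.9%, against 7.24%), and from 20 to 100 kb, 9 of 18 had an Ezh2m-/p+ maternal peak (50%, 29.0 to 71.0%, against 26.1%). By role, 13 of 16 co-receptors and other receptors, 7 of 9 ligands, 3 of 6 adhesion molecules and 24 of 29 cytoplasmic transducers had a peak in some list, where 45.3% of all protein-coding genes had one. The semaphorin co-receptor Nrp2 had 5 maternal peaks in each genotype and no paternal peak, and the netrin receptor Neo1 4 and 6. The netrin receptor Dcc had 3 and 4 paternal peaks and no maternal peak, and Shh, a morphogen that also guides commissural axons, 5 and 6 paternal peaks and 5 maternal peaks in Ezh2m-/p+ zygotes. The cytoskeletal protein gene Ablim1 had 13 and 5 paternal peaks. As in the receptor and ligand families, some genes of a pathway had peaks in the maternal and others in the paternal genome.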

How the data were processed

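The data were H3K27me2 peaks of 1 library per genotype. After trimming (Trimmomatic 0.38), the authors mapped reads to mm10 by Bowtie2, removed duplicates with Picard, split them by parental strain with SNPsplit and called peaks with SICER against input. The deposited lists give the fold of each peak, a ratio of H3K27me2 to input, with a smallest value of 5.00, and a ChIPseeker annotation. A deposited table holds, as a fraction, how much of every chromosome reads covered, with 1 row for each chromosome and group, and only the rows of these zygotes were used. The lists hold no read counts, so the depth behind a peak is unknown. The deletion of Ezh2 was not checked, since the peaks do not show it.

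Gene identifiers of the lists were given symbols from the RefSeq gene table of GRCm38.p6 (11459 of 11472 matched), and 53 peaks stayed without one. For all 345 peaks the listed transcript had the same symbol in GENCODE vM21. The members and lists of genes were chosen with earlier results of these data known. Peaks belong to the gene of the authors' annotation, and spans, strands and sequence came from RefSeq on GRCm38. Overlap was at least 1 bp, and windows were 1 Mb. Shares have 95% Wilson intervals. No test was made. Named are the genes with a peak in all 4 lists or in both parental genomes of 1 genotype, in each list the 3 genes with most peaks, the longest peak and the 3 of largest fold, genes with a peak within 1 kb of a start at a fold over 20, and genes with no peak. Other genes were named to complete their family, after their values were seen. All 38 results were recomputed with a fold over 10, a length over 2000 bp, peaks overlapping the gene only, ligands and receptors only, without the gene with most peaks and for autosomes only. The overlap was also taken at a reciprocal 50% and by genes, and position by distance and by covered base pairs. Python 3.11.15 with numpy 2.4.6, pandas 2.3.3, scipy 1.17.1, pysam 0.24.0 and matplotlib 3.10.9 was used, and the overlap and intervals were tested on simulated data.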

Additional observations from a re-analysis of the deposited data

Results flagged for a closer look

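Of the axon guidance genes, 5 had a number of maternal peaks that moved one way between the genotypes and a number of paternal peaks that moved the other way, from Ezh2m+/p+ to Ezh2m-/p+ zygotes. Ephb1 went from 2 to 0 maternal peaks (-2) and from 2 to 8 paternal peaks (a rise of 6). Sema6d went from 4 to 3 maternal peaks (-1) and from 1 to 4 paternal peaks (a rise of 3). With peaks inside Sema6d that were assigned to other genes, however, its maternal peaks went from 4 to 6, so that both parental genomes then moved the same way. Slit1 went from 2 to 1 maternal (-1) and from 3 to 6 paternal peaks (a rise of 3). Slit3 went from 1 to 0 maternal (-1) and from 9 to 11 paternal peaks (a rise of 2), and Unc5a from 1 to 0 maternal (-1) and from 1 to 2 paternal peaks (a rise of 1). Counted with such peaks, these numbers of Ephb1, Slit1, Slit3 and Unc5a still moved in opposite directions. The difference between the parental genomes was not tested, as each is 1 value. Most genes did not show it. Of 34 axon guidance genes with a maternal peak in either genotype, 67.6% had more and 23.5% fewer in Ezh2m-/p+ zygotes, against 58.3% and 28.7% of all protein-coding genes with one. Of 31 with a paternal peak, 74.2% had more and 9.68% fewer (Ephb2, Ephb4 and Ntn3), against 53.4% and 25.1%. The Ntn3 peak of the Ezh2m+/p+ paternal list overlapped no Ezh2m-/p+ paternal peak, while a peak inside Ntn3 that was assigned to another gene was found in both paternal lists. The Ezh2m-/p+ lists are longer for both parental genomes.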

How the results depend on the processing

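Of 284 values recomputed, 212 stayed within 1.5 times a count or within the interval (for medians, the quartiles) of a share, and 72 did not. Autosomes only and ligands and receptors only moved no value. Promoters by distance moved none of the 4 values recomputed. Leaving out Ephb2 and Epha8, added after the data were seen, was applied to the 12 shares by position only and moved none of them. Lists are named below in the order Ezh2m+/p+ maternal, Ezh2m+/p+ paternal, Ezh2m-/p+ maternal, Ezh2m-/p+ paternal (1 to 4). With 1 library per genotype no paired analysis was possible because the results come from no test. Read assignment, the unequal read numbers of the libraries and the unknown depth behind each peak limit every count. The cause of each move was not tested unless it lies in the construction of the alternative.

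At a fold over 10, list 1 had 12 peaks, 8 genes, 2 genes with 2 or more peaks, a promoter share of 0% and a median fold of 38.2, list 2 an overlap of 44.3%, and 5 genes had both parental genomes in Ezh2m+/p+ zygotes.

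At a length over 2000 bp, lists 2, 3 and 4 had 40, 25 and 71 peaks, lists 2 and 3 had 10 and 16 genes, and lists 2, 3 and 4 had 6, 6 and 15 genes with 2 or more peaks. The overlap was 0% in list 1, 82.5% in list 2 and 0% in list 3. The distal intergenic share was 32.5%, 28.0% and 40.8% in lists 2, 3 and 4, 52.5% of list 2 lay within a gene, and median lengths in lists 2, 3 and 4 were 4099, 2799 and 2999 bp. Genes with both parental genomes were 4 and 6.

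Counting only peaks that overlap the gene, the lists had 12, 52, 17 and 67 peaks, lists 1, 2 and 3 had 10, 17 and 12 genes, and lists 1, 3 and 4 had 1, 4 and 11 genes with 2 or more peaks. Both parental genomes had a peak at 3 and 4 genes. The overlap was 0% in lists 1 and 3. Distal intergenic shares were 0%, 3.85%, 0% and 4.48%, shares within a gene 75%, 67.3%, 52.9% and 74.6%, and promoter shares 28.8%, 47.1% and 20.9% in lists 2, 3 and 4.

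With every peak over a family gene, whichever gene it was assigned to (added after the data were seen), there were 15, 60, 26 and 81 peaks, and 11 and 13 genes in lists 1 and 3. Without Ephb2, the overlap of list 2 was 51.2%. Without Plxna2 and Epha4 (added after the data were seen), 52.4% and 50.9% of lists 2 and 4 lay within a gene and 26.8% and 36.0% were distal intergenic. At a reciprocal overlap of 50% lists 2 and 4 had 34.8% and 24.5%, against 31.4% and 24.6% of all peaks of these lists. Counting genes in place of peaks, 70.6%, 96.3%, 41.4% and 86.7% recurred. By covered base pairs, distal intergenic sequence was 30.01% of list 2 and 38.3% of list 4, and promoters 17.3% of list 4.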

Other observations

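The annotation gave only some of the peaks around Plxna2 to this gene. In the 1249 kb without a protein-coding gene between Camk1g and Plxna2, the Ezh2m+/p+ paternal list had 71 peaks, which covered 17.4% of the sequence, and the Ezh2m-/p+ paternal list 73, which covered 24.8%. Of these, 17 and 18 were assigned to Plxna2. The maternal lists had 0 and 1 peak there. The 122 kb between Plxna2 and Cd34 on its other side held no peak of any list.

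The sequence on the far side of Epha4 gave the opposite order of the parental genomes. In the 1808 kb up to Slc4a3, maternal peaks were more numerous than paternal ones, with 14 against 9 in Ezh2m+/p+ and 23 against 15 in Ezh2m-/p+ zygotes, of which 1 and 3 maternal peaks were assigned to Epha4. In the 586 kb up to Pax3 it was 1 against 6 and 5 against 14.

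All Robo2 peaks overlapped the span of Robo2 in RefSeq, yet 2 of 2 in the Ezh2m+/p+ and 3 of 4 in the Ezh2m-/p+ paternal list were annotated as distal intergenic, 276 to 397 kb from the start site used. These 5 were the only peaks of the families inside the span of their gene that carried this category.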
